A study of Rattus norvegicus with 12 samples.

Results

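The respiratory chain of the inner mitochondrial membrane was followed here through its nuclear-encoded subunits in cultured rat heart muscle cells. The members were all genes outside the mitochondrial chromosome whose symbol matched a pattern. For complex I it was Nduf, a letter and a digit, and for complex II Sdh and a letter. For complex III it was Uqcr or Cyc1, for complex IV Cox4 to Cox8 and for complex V Atp5. Ndufa4 and Ndufa4l2 were counted under complex IV. The members numbered 91 of the 32883 genes listed. Of these, 37 were of complex I, 4 of complex II, 10 of complex III, 22 of complex IV and 18 of complex V. A filter on low values left 87 of them. Cox6c-ps1, Cox7b2, Cox8c and Ndufa4l2 did not pass it, since none exceeded 0.154 rescaled FPKM in any library.

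Cardiomyocytes of Sprague-Dawley rats aged 1 to 3 days were plated at 40000 cells per cm2 in medium with 7% serum. They were kept with 10 µM AraC (cytosine arabinoside, which stops dividing cells), and this was withdrawn 24 h before treatment, per the labels. Treatment lasted 24 h, and 6 groups of 2 libraries each were sequenced: phenylephrine (PE at 10 µM, which activates alpha-1 adrenergic receptors) with JQ1 or with DMSO, endothelin-1 (ET-1, 100 nM) with JQ1 or with DMSO, and the acetic acid vehicle with JQ1 or with DMSO. JQ1 (1 µM) displaces BET bromodomain proteins from acetylated chromatin, and DMSO is its solvent. The study compared how agonists of distinct G protein-coupled receptors act on hypertrophic cardiomyocytes, and whether JQ1 alters that. Whether replicates 1 and 2 came from different cultures or animals is not said in the labels. The p-values therefore reflect the spread among these libraries alone, and that spread may be technical.

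Complex I takes electrons from NADH and complex II from succinate. Both pass them through ubiquinone to complex III, then through cytochrome c to complex IV, which reduces oxygen, and complex V uses the resulting proton gradient to make ATP. Adult heart muscle obtains most of its ATP in this way and carries muscle isoforms of several complex IV subunits. Most subunits are encoded in the nucleus, and the rest, all of them in complexes I, III, IV and V, in mitochondrial DNA.

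Coverage summed to 2.34 to 2.97 Gb (gigabases) per library. All 9 cardiomyocyte markers were present, and their summed level was 15622 to 24944 rescaled FPKM with JQ1 and 12607 to 19034 with DMSO. The troponin gene Tnnt2 made up much of that sum, at 10405 to 14801 with JQ1 and 5089 to 6813 with DMSO. Another troponin gene, Tnni3, went the other way, at 561 to 1563 with JQ1 and 1702 to 2380 with DMSO. Of the 9 markers, 2 were lower and 1 higher by the test used below, and the median log2 difference of the list was −0.19. All 9 fibroblast markers were present at a summed 110 to 665 with JQ1 and 214 to 1343 with DMSO, and the lower end of both ranges came from replicate 2. None of the 9 passed the test used below, which leaves the replicate number out (median log2 difference −0.90). At the same treatment and replicate number, however, each of the 9 was lower with JQ1 than with DMSO. Col3a1, for example, had 286 and 62.0 in vehicle with JQ1 (replicates 1 and 2), against 621 and 143 with DMSO. Results with the replicate number as a block are not given for the markers. The 6 smooth muscle markers summed to 26.9 to 75.0 with JQ1 and 77.5 to 212 with DMSO, with 3 lower by that test. The 8 macrophage markers summed to 0.488 to 4.11 and 2.44 to 9.36 in the same order, with 2 lower. Cd163 was listed at 0 in every library, and only 1 of the 8 had a mean of at least 1 rescaled FPKM. The 6 endothelial markers found summed to 6.03 to 9.74 with JQ1 and 4.02 to 8.06 with DMSO, a sum made up mostly of Egfl7 with JQ1. Of these markers 1 was lower and 1 higher, only 1 had a mean of at least 1 rescaled FPKM, and the list's median was −0.52. How many endothelial and macrophage markers passed the filter on low values, and so were tested, is not given here. Beside these counts, 29.9% of all genes tested were lower and 30.2% higher. The summed levels of every list thus differed between JQ1 and DMSO libraries or between replicates. That of cardiomyocytes, for example, was 15622 in 1 vehicle library with JQ1 and 24944 in the other. The part of any list in the results below was not tested. In RNA from whole cultures, fewer cells of a type and less RNA per cell cannot be told apart.

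With JQ1, most nuclear-encoded subunits were expressed at a lower level. Averaged over the 3 treatments, 54 of the 87 members (62.1%) were lower with JQ1 than with DMSO, 6 (6.90%) were higher and 27 did not pass an adjusted p of 0.05 in limma. Over all 13793 genes tested, 29.9% were lower and 30.2% higher. The median log2 difference of the members was −0.29, against 0.02 over all genes. With the replicate number as a block, 60 members were lower and 7 higher, against 36.9% and 36.6% of all genes. The members took 2.24 to 3.10% of the coverage summed over all listed transcripts with JQ1 and 3.17 to 3.58% with DMSO, so these ranges did not overlap. Their summed level did overlap, at 29730 to 37268 rescaled FPKM with JQ1 and 34779 to 41438 with DMSO. Of the members, 53 were lower with JQ1 in 6 of 6 pairs of libraries that shared treatment and replicate number. The share of all genes with that pattern is not given here, so this count has no background to be read against. In 28 members (32.2%) every JQ1 library lay below every DMSO library, as in 18.5% of all genes, and in 3 members (3.45%) every JQ1 library lay above, as in 17.9% of all genes.

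**Figure D1:**
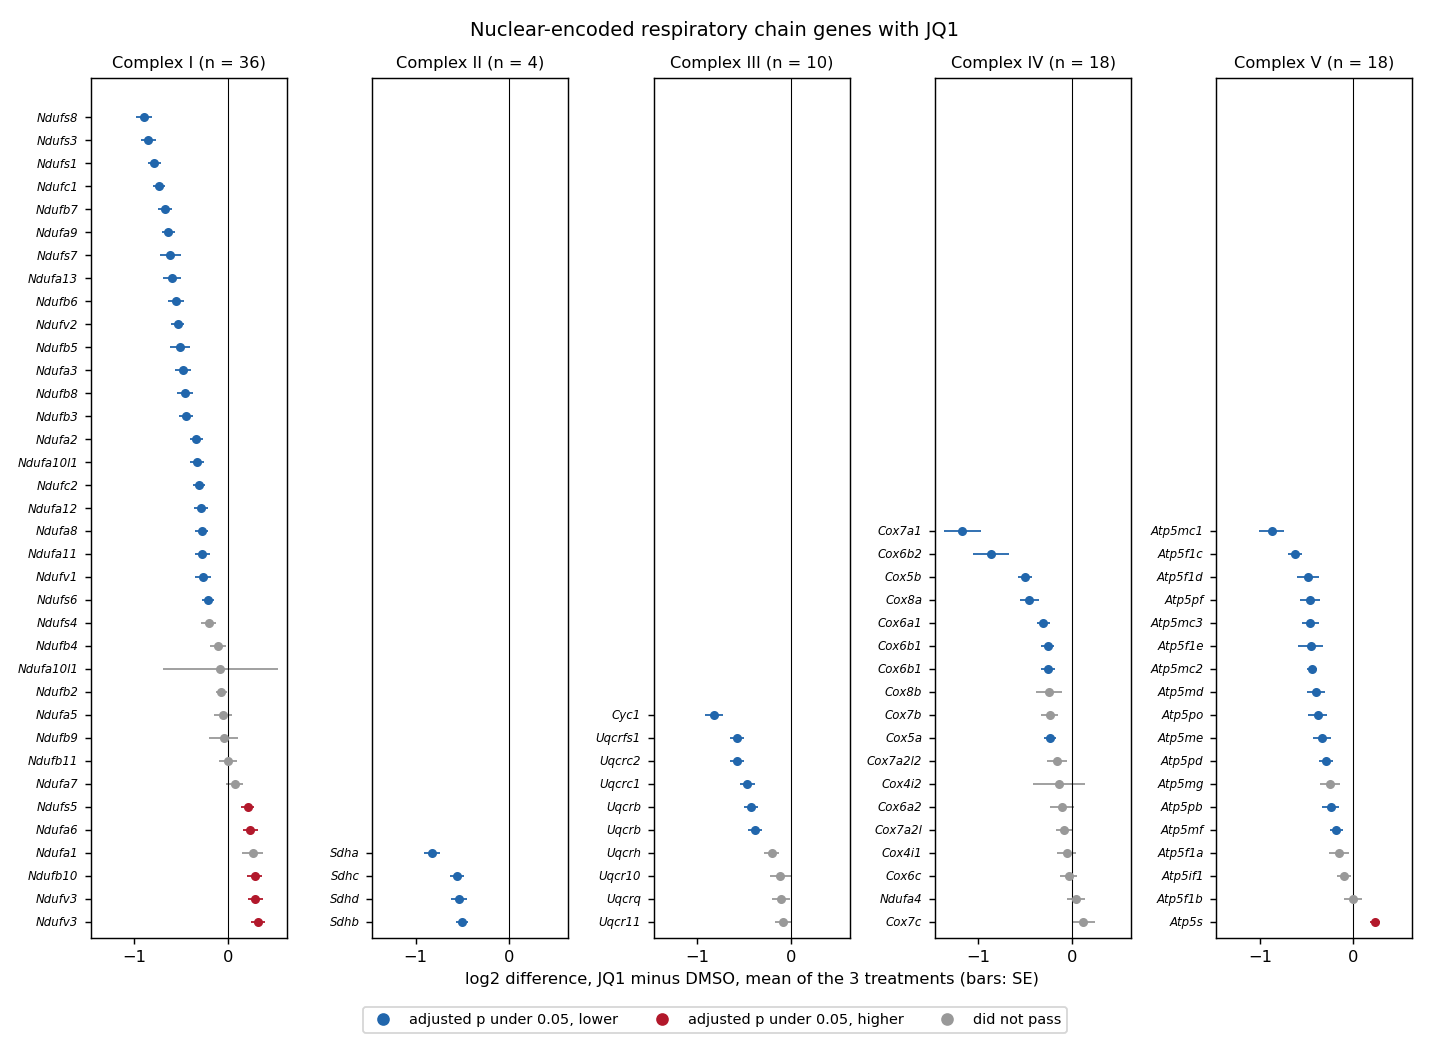
Log2 difference between JQ1 and DMSO, averaged over the 3 treatments, for 86 of the 87 members tested, by complex. Points are limma estimates and bars their standard errors; blue members were lower, red ones higher, and grey ones did not pass an adjusted p of 0.05. All 4 subunits of complex II are blue, 5 of the 6 red points lie in complex I, and a symbol shown more than once stands for separate gene IDs.

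Complex I held 23 lower, 5 higher and 9 other members among 37, with a median of −0.29. Ndufs8, a subunit of the peripheral arm that holds iron-sulphur clusters, lies on chromosome 1 (219141292 to 219144610, minus strand, rn6). It had 64.6 and 74.9 rescaled FPKM in PE-treated cells with JQ1, against 122 and 140 with DMSO. In ET-1-treated cells it had 68.9 and 70.7 with JQ1, against 131 and 139 with DMSO. In vehicle-treated cells it had 69.4 and 84.9 with JQ1, against 124 and 153 with DMSO. All JQ1 libraries lay below all DMSO libraries, and the mean log2 difference was −0.90 ± 0.08 (SE; limma, adjusted p = 4.5e-05).

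Ndufs1, the large iron-sulphur subunit of the NADH-oxidising N module, showed the same order of groups. It had 168 and 154 rescaled FPKM with PE and JQ1, against 275 and 290.1 with PE and DMSO. With ET-1 it had 150 and 131 with JQ1, against 247 and 268 with DMSO. In vehicle it had 158 and 173 with JQ1, against 243 and 289 with DMSO. The highest JQ1 library thus lay below the lowest DMSO library, and the mean log2 difference was −0.79 ± 0.07 (SE; limma, adjusted p = 3.4e-05). Among further peripheral-arm subunits, Ndufs3 fell by 0.85, Ndufs7 by 0.62, Ndufv2 by 0.54 and Ndufv1, which binds NADH and flavin, by 0.27 on the log2 scale. Ndufa5, an accessory subunit, gave −0.05 ± 0.10 and did not pass (limma, adjusted p = 0.69).

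In the N module 6 of 11 members were lower and 3 higher, beside 29.9% and 30.2% of all genes. The 3 were Ndufa6 and both gene IDs named Ndufv3, which may share reads. Among 19 further subunits, most of them in the membrane arm, 12 were lower and 2 higher, beside the same shares of all genes. Ndufc1 (−0.74 ± 0.06), Ndufb7 (−0.67 ± 0.08) and Ndufa9 (−0.64 ± 0.07) led this last set, where Ndufb2, Ndufb4, Ndufb9 and Ndufb11 did not pass (−0.11 to 0.00). Nor did Ndufa1, at 0.27 ± 0.11 (limma, adjusted p = 0.069, and 0.0064 with the block), which was higher with JQ1 in 6 of 6 pairs of libraries.

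Of the 6 gene IDs that rose, 5 belonged to complex I, and these were all accessory subunits. Ndufb10, a membrane-arm subunit, had 139 and 143 rescaled FPKM with PE and JQ1, against 112 and 119 with PE and DMSO. With ET-1 it had 136 and 142 with JQ1, against 114 and 130 with DMSO, and in vehicle 136 and 155 with JQ1, against 98.2 and 126 with DMSO. Every JQ1 library exceeded every DMSO library, though the mean log2 difference was small, at 0.29 ± 0.08 (SE; limma, adjusted p = 0.012). Ndufs5 (0.21 ± 0.07) and Ndufa6 (0.24 ± 0.08) rose as well (limma, adjusted p = 0.024 for each). Ndufa6 lost its call without replicate 2 of any JQ1 group or replicate 1 of any DMSO group (adjusted p 0.056 to 0.067). Ndufs5 lost it without replicate 2 of ET-1 or PE with JQ1, replicate 1 of vehicle or PE with DMSO, or replicate 2 of ET-1 with DMSO (0.053 to 0.067), and on the values as deposited. Both gene IDs named Ndufv3 rose, by 0.32 and 0.29. One of them is a single exon of 327 bases, so that reads may be shared between the copies and the pair is uncertain. The same holds for Cox6b1, Ndufa10l1 and Uqcrb, each listed under a second, single-exon ID.

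The promoters of 4 members are shown to set a pair that fell (Ndufs8, Uqcrc1) beside a pair that rose (Ndufa6, Ndufb10). They run from 250 bases before to 50 after the annotated start, 5′ to 3′ in the direction of the gene, from RefSeq on the GRCr8 assembly. Capitals mark matches, on either strand, to motifs of 4 factors or families known to act at such promoters: CGCATGCG for NRF1, AAGGTCA for the ERR receptors, AAGATGG for YY1 and CCGGAAG for ETS factors such as GABPA. A match on the reverse strand shows the complementary letters, as CTTCCGG for ETS.
Ndufs8 (chr1:210573649-210573948, minus strand): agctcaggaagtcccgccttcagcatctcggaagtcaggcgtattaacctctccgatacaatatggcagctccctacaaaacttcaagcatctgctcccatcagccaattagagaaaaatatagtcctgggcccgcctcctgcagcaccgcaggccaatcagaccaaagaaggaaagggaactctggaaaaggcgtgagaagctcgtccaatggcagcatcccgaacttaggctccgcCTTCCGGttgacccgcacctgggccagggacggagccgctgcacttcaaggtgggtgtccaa
Uqcrc1 (chr8:118467973-118468272, plus strand): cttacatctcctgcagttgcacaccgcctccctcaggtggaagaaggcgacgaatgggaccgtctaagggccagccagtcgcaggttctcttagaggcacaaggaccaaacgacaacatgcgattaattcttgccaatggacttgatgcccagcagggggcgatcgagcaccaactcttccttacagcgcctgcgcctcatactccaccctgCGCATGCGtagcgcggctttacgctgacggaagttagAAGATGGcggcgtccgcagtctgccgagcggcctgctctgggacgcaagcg
Ndufa6 (chr7:115750268-115750567, minus strand): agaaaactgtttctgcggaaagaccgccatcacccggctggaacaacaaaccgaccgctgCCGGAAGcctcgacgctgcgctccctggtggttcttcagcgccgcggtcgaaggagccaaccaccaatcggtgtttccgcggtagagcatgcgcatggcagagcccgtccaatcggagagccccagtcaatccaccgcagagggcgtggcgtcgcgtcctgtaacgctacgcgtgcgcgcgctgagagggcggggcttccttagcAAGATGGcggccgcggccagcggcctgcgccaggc
Ndufb10 (chr10:14255917-14256216, minus strand): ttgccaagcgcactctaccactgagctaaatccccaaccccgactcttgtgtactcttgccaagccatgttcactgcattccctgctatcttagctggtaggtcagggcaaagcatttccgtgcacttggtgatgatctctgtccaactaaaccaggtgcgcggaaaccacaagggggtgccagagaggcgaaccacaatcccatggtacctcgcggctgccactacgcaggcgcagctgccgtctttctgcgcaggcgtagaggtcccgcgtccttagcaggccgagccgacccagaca
The Ndufs8 window holds an ETS match at −12, and that of Uqcrc1 an NRF1 match at −38 and a YY1 match at −1, counted from the start at 1. Ndufa6, which rose, has an ETS match at −190 and a YY1 match at 16, and the Ndufb10 window holds none of the 4 motifs. Of 70 members with a promoter in the table, 7 (10%) held the NRF1 letters, 11 (15.7%) ERR, 18 (25.7%) YY1 and 19 (27.1%) ETS. Among all 33469 promoters of the same length the shares were 1.66%, 4.61%, 7.01% and 8.75%. That set was not limited to the genes tested here, whose shares are not given. The median JQ1 difference was −0.38 for the 7 members with the NRF1 letters and −0.31 for 61 without, and −0.21 for 11 with ERR and −0.38 for 57 without. It was −0.46 for 17 with YY1 and −0.27 for 51 without, and −0.46 for 19 with ETS and −0.29 for 49 without. A match is a description of letters and says nothing of binding.

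All 4 subunits of complex II fell with JQ1, and this was the complex with the lowest median (−0.55). Sdha, the flavoprotein that oxidises succinate, had 217 and 178 rescaled FPKM with PE and JQ1, against 360 and 379 with PE and DMSO. With ET-1 it had 211 and 165 with JQ1, against 364 and 363 with DMSO. In vehicle it had 258 and 265 with JQ1, against 374 and 431 with DMSO. Again no JQ1 library reached the lowest DMSO library, and the mean difference was −0.83 ± 0.08 (SE; limma, adjusted p = 7.3e-05). Sdhb, the iron-sulphur subunit, fell by 0.50, and the membrane anchors Sdhc and Sdhd fell by 0.56 and 0.54 on the log2 scale. In complex II taken alone, the summed level averaged 755 with PE and JQ1 against 1243 with PE and DMSO, 760 with ET-1 and JQ1 against 1243 with ET-1 and DMSO, and 961 with vehicle and JQ1 against 1287 with vehicle and DMSO. Over all 91 members the mean sums with JQ1 and DMSO were 30119 and 38134 (PE), 31713 and 38398 (ET-1), 34363 and 37038 (vehicle).

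Complex III had 6 lower members and none higher among 10, with a median of −0.40. The 6 were its electron carriers Cyc1 and Uqcrfs1, the core proteins Uqcrc1 and Uqcrc2 and both IDs of the small subunit Uqcrb. Cyc1, cytochrome c1, had 138 and 140 rescaled FPKM with PE and JQ1, against 234 and 276 with PE and DMSO. With ET-1 it had 136 and 136 with JQ1, against 252 and 279 with DMSO. In vehicle it had 134 and 172 with JQ1, against 206 and 273 with DMSO. The groups did not overlap, and the mean difference was −0.82 ± 0.10 (SE; limma, adjusted p = 0.00016). The Rieske iron-sulphur protein Uqcrfs1 fell by 0.57, and the core proteins Uqcrc2 and Uqcrc1 fell by 0.57 and 0.46 on the log2 scale. Of 6 small subunits, only the pair of IDs named Uqcrb passed, at −0.42 and −0.38. Uqcrh, the most abundant member of this complex with a mean of 808 rescaled FPKM, gave −0.20 (limma, adjusted p = 0.058, and 0.023 with the block).

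**Figure D2:**
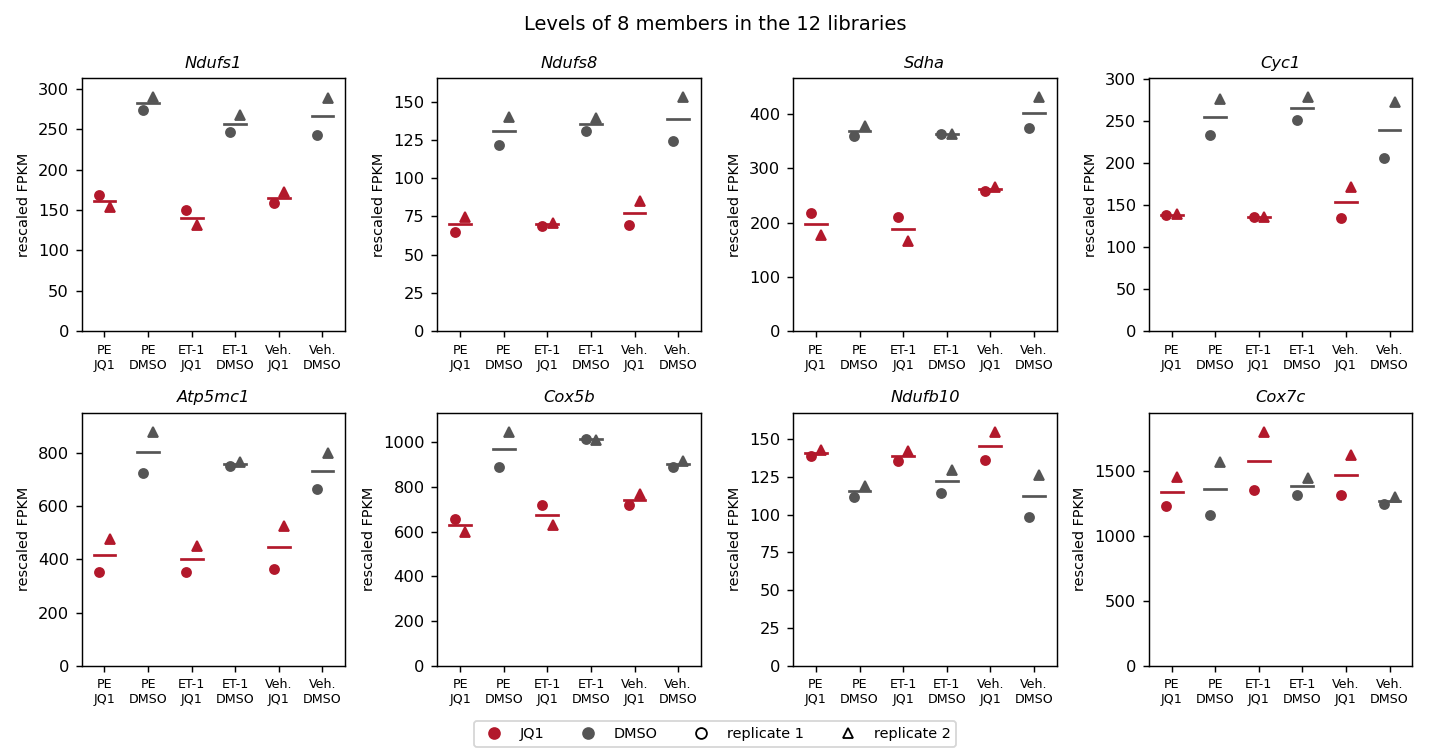
Levels of 8 members in rescaled FPKM in each of the 12 libraries, by treatment, with JQ1 left of DMSO. Points are libraries, circles replicate 1, triangles replicate 2 and lines group means. For Ndufs1, Ndufs8, Sdha, Cyc1, Atp5mc1 and Cox5b every JQ1 library lies below every DMSO library; for Ndufb10 every one lies above, and for Cox7c the groups overlap.

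Complex IV had the median nearest 0 of the 5 complexes (−0.24), with 8 lower members among the 18 tested. None of the 18 was higher. Of the ubiquitous subunits, Cox5b, which binds zinc, had 656 and 599 rescaled FPKM with PE and JQ1, against 889 and 1047 with PE and DMSO, and it fell by 0.50 on the log2 scale over the 3 treatments. Cox8a fell by 0.46, Cox6a1 by 0.30 and Cox5a by 0.23. The most abundant subunit, Cox4i1, gave −0.06 ± 0.10 and did not pass (limma, adjusted p = 0.65), nor did Cox6c (−0.04), Cox7b (−0.24), Cox7c (0.12) or Ndufa4 (0.04), a subunit once assigned to complex I. The 95% interval for Cox4i1 ran from −0.28 to 0.17, so a fall the size of that of Cox5b lay outside it.

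Of the 3 muscle isoforms of complex IV, 1 passed the test. Cox7a1, the heart and skeletal muscle form of subunit 7a, was scarce here. It had 2.21 and 1.54 rescaled FPKM with PE and JQ1, against 6.92 and 5.32 with PE and DMSO. With ET-1 it had 2.09 and 1.09 with JQ1, against 5.52 and 3.95 with DMSO, and in vehicle 1.14 and 0.886 with JQ1, against 2.74 and 1.31 with DMSO. Its mean log2 difference of −1.17 ± 0.20 was the largest fall among the 87 members (limma, adjusted p = 0.0011), although Cox7a2l2, another subunit 7a gene, was at 516 to 707 with JQ1 and 593 to 819 with DMSO. Cox8b, the muscle form of subunit 8, gave −0.25 ± 0.14 (limma, adjusted p = 0.15, and 0.015 with the block), and it was 4.22 to 8.05 times as abundant as Cox8a with JQ1 and 3.72 to 6.36 times with DMSO. Cox6a2, the muscle form of subunit 6a, gave −0.10 ± 0.13 (limma, adjusted p = 0.51), with a ratio to Cox6a1 of 0.973 to 1.74 with JQ1 and 0.905 to 1.47 with DMSO. Cox6b2, known as a testis form, fell by 0.87 at 0.581 to 1.41 rescaled FPKM with JQ1 and 1.34 to 3.29 with DMSO. Cox4i2, the lung and hypoxia form of subunit 4, lay at 0.298 to 1.06 with JQ1 and 0.381 to 1.23 with DMSO and did not pass (−0.14 ± 0.27).

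**Figure D3:**
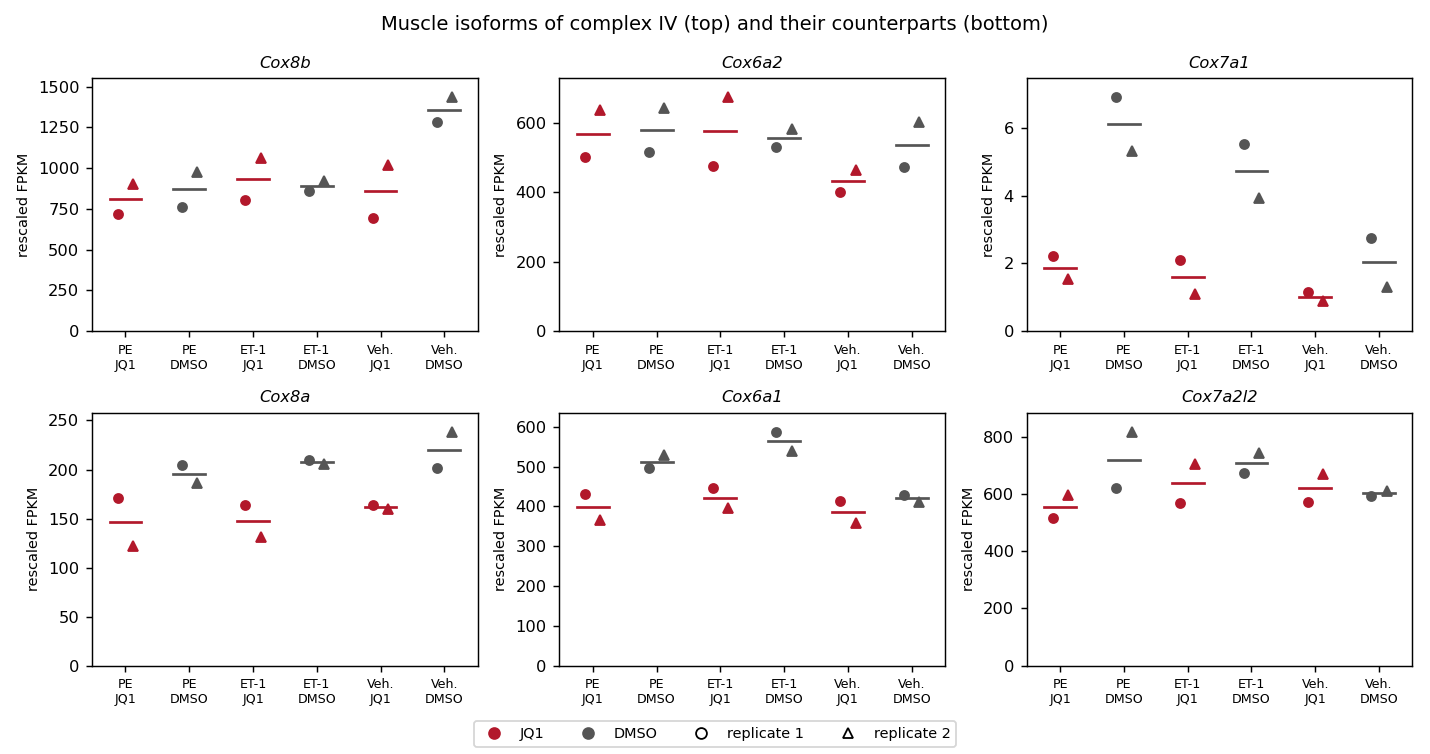
Levels in rescaled FPKM of 3 muscle isoforms of complex IV (top) and 3 counterparts (bottom) in the 12 libraries, by treatment, with JQ1 left of DMSO. Points are libraries, circles replicate 1, triangles replicate 2 and lines group means. Cox7a1 lies at 1.14 and 0.886 with vehicle and JQ1 and reaches 6.92 with PE and DMSO; Cox8b is highest in vehicle with DMSO, at 1281 and 1436.

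In complex V, 13 of 18 members were lower and 1 was higher, with a median of −0.36. All 3 genes of the c-ring, the rotor driven by protons, fell. They encode the same mature protein with different leader peptides. Atp5mc1 had 355 and 476 rescaled FPKM with PE and JQ1, against 727 and 881 with PE and DMSO. With ET-1 it had 354 and 451 with JQ1, against 751 and 766 with DMSO. In vehicle it had 365 and 527 with JQ1, against 666 and 800 with DMSO. The groups did not overlap, and the mean difference was −0.87 ± 0.13 (SE; limma, adjusted p = 0.00064). Atp5mc3 fell by 0.46 and Atp5mc2 by 0.44, and the ratio of Atp5mc1 to Atp5mc3 was 0.532 to 0.784 with JQ1 and 0.758 to 0.874 with DMSO. All 4 stalk subunits fell, by 0.24 (Atp5pb) to 0.46 (Atp5pf).

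In the F1 head of complex V, 3 of 5 subunits were lower. The catalytic beta subunit Atp5f1b, the most abundant of all members at a mean of 3404 rescaled FPKM, had 3312 and 3167 with PE and JQ1, against 3172 and 3635 with PE and DMSO. Its mean difference was 0.00 ± 0.10 (SE; limma, adjusted p = 0.97), with a 95% interval of −0.23 to 0.22. The alpha subunit Atp5f1a gave −0.15 ± 0.11 and did not pass (limma, adjusted p = 0.25). The central-stalk subunits Atp5f1c, Atp5f1d and Atp5f1e fell by 0.62, 0.48 and 0.46 on the log2 scale. Atp5if1, which inhibits the enzyme, gave −0.10 ± 0.07 and did not pass. Atp5s, named coupling factor B, rose by 0.23 ± 0.05 (limma, adjusted p = 0.0050) at 11.7 to 13.2 rescaled FPKM with JQ1 and 9.54 to 11.1 with DMSO.

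More members passed with JQ1 in agonist-treated cells than in vehicle, but the difference between the JQ1 effects did not pass the test for any member. With PE, 39 members were lower with JQ1 and none higher, against 19% and 17.5% of all genes, and the median was −0.41. With ET-1, 35 were lower and 1 higher, against 19.6% and 17.9%, and the median was −0.37. In vehicle, 11 were lower and 1 (Ndufs5) higher, against 16.7% and 15.3%, and the median was −0.14, so that here the share of members that fell (12.6%) was no larger than that of all genes. Among the 11 were Ndufs8, Atp5mc1, Ndufs1, Cyc1, Sdha and Ndufc1, and all 11 were also lower with ET-1 and with PE. With the replicate block, 58 were lower and 3 higher with PE (29.7% and 26.7% of all genes), 54 and 3 with ET-1 (29.8% and 27.1%), and 31 and 7 in vehicle (27.9% and 24.9%). In vehicle the share of members that fell with the block (35.6%) was thus above that of all genes, where it was below without the block.

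The counts within treatments leaned on single libraries. For PE, the 39 calls were 18 without replicate 2 of PE with DMSO, 22 without replicate 2 of PE with JQ1 and 24 without replicate 1 of PE with JQ1. For ET-1, the 36 calls were 18 and 23 without replicate 2 and replicate 1 of ET-1 with DMSO, and 22 without replicate 2 of ET-1 with JQ1. In vehicle, the 12 calls were 4 without replicate 2 of vehicle with DMSO and 7 without replicate 1 of vehicle with JQ1.

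The JQ1 difference with PE minus that in vehicle was negative for 83 of 87 members (95.4%) with a median of −0.25, and that with ET-1 minus that in vehicle for 80 (92.0%) with a median of −0.21. Over all genes the medians were 0.0072 and 0.0089, and the share of negative values is not given here. The members share libraries and scaling, so their signs are not independent. No member passed in limma, as 0% of all genes did in either contrast, and 4 and 1 members had an unadjusted p under 0.05. With the block no member passed either (0.0725% and 0.0363% of all genes). These contrasts share the vehicle libraries. The largest negative value with an unadjusted p under 0.05 was that of Uqcrh with PE (−0.52 ± 0.20, adjusted p = 0.93).

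**Figure D4:**
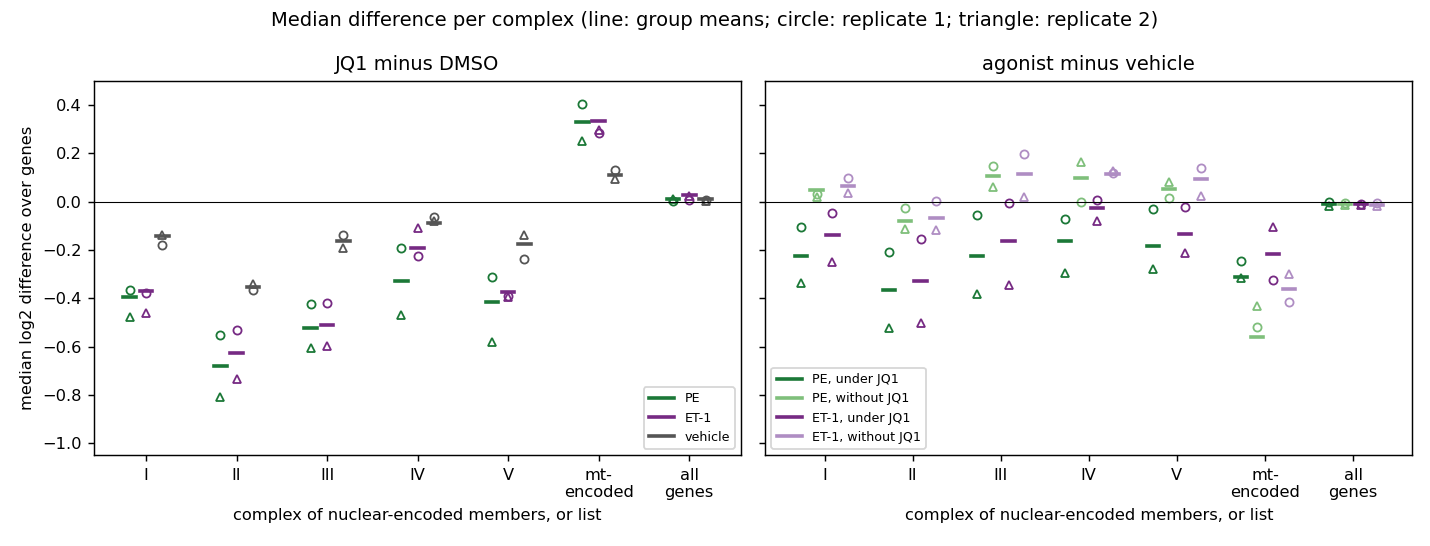
Median log2 difference over the members of each complex, over the 13 mitochondrially encoded subunits and over all genes tested, for JQ1 minus DMSO (left) and agonist minus vehicle (right). Lines are differences of group means, circles the same within replicate 1 and triangles within replicate 2. In the left panel the complexes lie below 0 in every treatment and replicate, and the mitochondrially encoded subunits lie above 0.

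Without JQ1, few nuclear-encoded subunits passed the test for an agonist against vehicle. With PE, 1 member passed: Cox7a1, at 6.92 and 5.32 rescaled FPKM with PE against 2.74 and 1.31 with vehicle (log2 difference 1.44 ± 0.34, limma, adjusted p = 0.048). In all, 6.07% of genes passed in this comparison. Cox7a1 kept that call without replicate 1 or without replicate 2 of ET-1 with JQ1 and lost it without any of the other 10 libraries (adjusted p 0.059 to 0.24). With the block, Cox7a1 and Ndufa12 were higher and Cox8b lower (24% of all genes passed). Cox8b had 763 and 976 with PE against 1281 and 1436 with vehicle, groups that did not overlap (−0.65 ± 0.23; limma, adjusted p = 0.14, and 0.010 with the block). The median of the members was 0.06, and −0.07 on the values as deposited, where the median of all genes shifted to −0.13.

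With ET-1 and no JQ1, none of the 87 members passed, 5 had an unadjusted p under 0.05, and 2.87% of all genes passed. With the block, Ndufa12, Uqcrq, Cox6a1, Ndufb9 and Cox7a1 were higher and Cox8b lower (18.4% of all genes). Cox7a1 had 5.52 and 3.95 with ET-1 against 2.74 and 1.31 with vehicle (1.09 ± 0.34; limma, adjusted p = 0.13, and 0.0040 with the block), and Cox8b had 861 and 923 against 1281 and 1436 (−0.60 ± 0.23, adjusted p = 0.20, and 0.016 with the block). Both isoforms thus stood on the same side of vehicle with either agonist, in comparisons that share the vehicle libraries. The median was 0.07, and −0.01 on the values as deposited, where that of all genes was −0.11. Between PE and ET-1 no member passed, none had an unadjusted p under 0.05 and none passed with the block, where 0.00725% of all genes passed without the block.

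Under JQ1, no member passed with PE against vehicle (0.718% of all genes, 14 members with an unadjusted p under 0.05) or with ET-1 against vehicle (1.36%, 11 members). The medians were −0.19 and −0.14, and 79 and 64 of the 87 members were negative. Over all genes the medians were −0.0073 and −0.011, and the share of negative values is not given here. The values of the members came mainly from replicate 2, where their medians were −0.31 with PE and −0.22 with ET-1, against −0.09 and −0.02 in replicate 1. With the block, 9 members were lower with PE (Sdhd, Ndufc1, Atp5f1c, Ndufs3, Atp5md, Ndufa5, Ndufc2, Cox7a2l and 1 Uqcrb ID) and Cox7a1 was higher (12.1% of all genes), and Ndufa9 and Ndufs3 were lower with ET-1 (11.6%). Sdhd, for example, had 191 and 180 rescaled FPKM with PE and JQ1 against 237 and 291 with vehicle and JQ1. Between PE and ET-1 under JQ1 no member passed by limma or with the block (0% of all genes by limma), and 1 member had an unadjusted p under 0.05.

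Averaged over the 3 treatments, the 13 subunits encoded in mitochondrial DNA had log2 differences of 0.02 to 0.34 with JQ1 and a median of 0.25, whereas the nuclear-encoded members had a median below 0. With ET-1 their lowest value was −0.13 and in vehicle −0.0024. In the average, 1 of them (Mt-nd3, 0.28 ± 0.10; limma, adjusted p = 0.040) was higher and none lower, against 30.2% and 29.9% of all genes. With the block 9 of the 13 were higher, against 36.6% of all genes. For the agonists without JQ1 their median was −0.56 with PE and −0.36 with ET-1, and none passed. With the block, 10 were lower with PE and 8 with ET-1, where 24% and 18.4% of all genes passed in either direction. Mt-nd3 had 936 and 1024 rescaled FPKM with PE and JQ1 against 707 and 858 with PE and DMSO.

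Among proteins that build the complexes, 27 of 48 tested assembly factors (of 52 listed) were lower with JQ1 and 11 higher, with a median of −0.22, where 29.9% of all genes were lower and 30.2% higher. Cox10, which makes the haem A precursor for complex IV, had 3.85 to 5.57 rescaled FPKM with JQ1 and 13.3 to 17.2 with DMSO, without overlap (−1.65 ± 0.08). Nubpl, which delivers iron-sulphur clusters to complex I, fell by 1.27, and Ndufaf1, an early complex I assembly factor, fell by 0.90 on the log2 scale. Ttc19, a complex III factor, went the other way at 37.1 to 41.4 with JQ1 and 14.4 to 19.3 with DMSO (1.21 ± 0.04). Coa6 is among the 11, but it is listed at 0 in 3 of the DMSO libraries. Cycs (cytochrome c) and Ndufab1 (mitochondrial acyl carrier protein), listed here as carriers, fell by 0.46 and 0.40. The symbol of Ndufab1 did not match the pattern for complex I, so Ndufab1 was not counted among the members.

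Of 18 transcriptional regulators of mitochondrial genes, 8 were lower with JQ1 and 5 higher, beside 29.9% and 30.2% of all genes. Perm1, a muscle regulator of energy metabolism that acts with PGC-1 and ERR, had 0.523 to 1.68 rescaled FPKM with JQ1 and 8.56 to 18.7 with DMSO, without overlap (−3.15 ± 0.17; limma, adjusted p = 4.5e-06). The coactivators Ppargc1a and Ppargc1b fell by 0.62 and 1.03, the receptors Ppara, Esrrb and Esrra by 0.73, 0.56 and 0.42, the coactivator Pprc1 by 0.34, and the mitochondrial RNA polymerase Polrmt by 0.19. Nrf1 (0.26 ± 0.04), Yy1 (0.19 ± 0.04), Tfb2m (0.36 ± 0.05), Twnk (0.34 ± 0.07) and the mitochondrial DNA polymerase Polg (0.96 ± 0.05) rose. Tfam, Tfb1m, Gabpa, Gabpb1 and Esrrg did not pass (−0.11 to 0.10). Without JQ1, Polrmt was lower with PE (−0.56 ± 0.10; limma, adjusted p = 0.024).

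Over the 87 members, the mean JQ1 difference had a Spearman rho of −0.384 with the number of exons, −0.201 with the length of the longest transcript and 0.187 with the mean level. Over all 13793 genes the values were −0.0592, −0.0494 and 0.236. The members share libraries and scaling, and some may share reads, so these are descriptions. Among the 11 members whose longest transcript is under 400 bases, 8 were lower and 1 higher, and among the other 76, 46 were lower and 5 higher. Over all genes of any length 29.9% were lower and 30.2% higher. Shares of all genes by length are not given here, so short members are not set against short genes at large.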

How the data were processed

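Total RNA was depleted of ribosomal RNA and made into stranded libraries, per the labels' protocols. The tools named, per the submitters' processing notes, are StringTie 1.3.4d, STAR 2.7.1a, DESeq2 1.24.0 and Trim Galore 0.6.0, with the rn6 (Rnor_6.0) build. The deposited tables hold mean coverage (signal) per base and FPKM for each of 41078 transcripts, per the file headers, so FPKM values were already scaled by the authors for length and library total. No source used here gives how strand was treated in the counting, and values of overlapping and antisense genes are uncertain.

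FPKM was summed by gene ID and divided by a median-of-ratios factor per library (0.873 to 1.13, computed on 15551 genes never at 0), giving rescaled FPKM. The 13793 genes that reached 1 rescaled FPKM in 2 or more libraries were kept. Limma 3.58.1 (R 4.3.3), with trended and robust moderation, was fitted to log2(rescaled FPKM + 0.5) with 6 group means over all 12 libraries. Log2 differences are on that scale, so changes of genes at low levels are understated. P-values were adjusted by Benjamini-Hochberg over all genes tested in each of 12 comparisons, with a threshold of 0.05. Coverage times length gave the depth; read counts are unknown, so no counting intervals are given. A gene listed at 0 may be a failed estimate. Figures were drawn with matplotlib 3.10.9 in Python 3.11.15.

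All groups share replicate numbers 1 and 2. Same-numbered libraries deviated together from their group means in all 15 pairs of groups (correlations 0.155 to 0.671), though no label states a pairing. They were treated as pairs only in the replicate block and in differences within a replicate number. The main fit, which gave the calls unless the block or another alternative is named, left the replicate number out.

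The members and gene lists were chosen with earlier results of these data known. The members named were at most the 10 largest rises and 10 largest falls called in each comparison, tissue isoforms, the most and least abundant member of each complex and complex II; others are named for their role and were chosen after their values were seen. One member is counted but not reported by name here. Alternatives were 2 other pseudocounts, no filter, values as deposited, factors from genes of at least 400 bases, IDs of one name summed, only the 2 groups compared, the replicate block and each library left out.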

Additional observations from a re-analysis of the deposited data

How the results depend on the processing

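None of the 81 calls of named members reversed under the alternatives that gave a value for it; other members were followed only through the counts. The 60 members called for JQ1 averaged over the treatments were 56 to 62 with 1 library left out, and 64 to 67 with the block as well. With the replicate block, calls numbered 61 for JQ1 with PE (39 without it), 57 with ET-1 (36) and 38 in vehicle (12). The block gave 3 for PE against vehicle without JQ1 (1 without it), 6 for ET-1 (0), and under JQ1 10 for PE (0) and 2 for ET-1 (0); it moved no other count by over 1.5 times. A fit to the 2 groups compared alone, with fewer libraries, called 23 with PE, 14 with ET-1 and 4 in vehicle, and 0 for PE against vehicle. On the values as deposited, JQ1 in vehicle gave 23 calls, all lower. For PE against vehicle without JQ1, the pseudocount of 0.1 gave 0 calls, as did no filter on low values; the call on the values as deposited was Cox8b, lower, and not Cox7a1. The cause was not tested.

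With 1 library left out, calls for JQ1 ranged from 18 to 37 with PE, 18 to 38 with ET-1 and 4 to 11 in vehicle, and with the block from 39 to 60, 39 to 58 and 15 to 39 (among these 59 with PE, and 26, 27, 30 and 32 in vehicle). Agonists without JQ1 gave 0 to 1 (PE) and 0 to 0 (ET-1) calls, and with the block 1 to 4 and 1 to 6 (5 without either vehicle library with JQ1). Under JQ1 they gave 0, and with the block 0 to 10 (PE, among these 8) and 0 to 6 (ET-1). A library left out leaves a lone sample assumed to vary like the other groups. Where a named member changed its side of the threshold under the block (29 values of 300 not called), it gained a call; none of the 81 called lost one. With 2 libraries a group, changes near the size of the standard errors could not be resolved.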
